A study of Mus musculus with 12 samples.

Results

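The genes for the proteins of the cytosolic ribosome were followed in macula densa cells and control cells sorted from mouse kidney cortex. They were the protein-coding rows of the count table whose symbol begins with Rpl, Rplp or Rps and a number, together with Rpsa, without the Rps6k kinases, symbols holding -ps and gene variants, which are described apart. This gave 77 of the 23378 genes in the table, 46 of the large and 31 of the small subunit. A further 8 genes were kept apart: the variants Rpl10l, Rpl22l1, Rpl36al, Rpl3l, Rpl7l1, Rps27l and Rps27rt, and Rps19bp1, which encodes a protein that binds Rps19 and is no subunit. All 77 genes had counts in every library and all passed the filter on low counts.

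All mice were C57BL/6 and carried nNos CreERT2, in which neuronal nitric oxide synthase regulatory sequence drives a Cre that tamoxifen switches on, and the mTmG reporter, which turns from red tdTomato to green GFP where Cre has acted. The green cells stood for the macula densa, the salt-sensing plaque of the distal nephron, and the cells with the most tdTomato were the control cells, meant to come from the distal tubule and collecting duct. For 14 days the mice were fed control diet (untreated below), or low salt diet while drinking enalapril, an inhibitor of angiotensin-converting enzyme, in water at 150 mg/L (treated below). There were 2 macula densa libraries and 4 control-cell libraries per diet, 12 in all. Both cell populations came from the same kind of mouse, so every group carried both transgenes, and the green label marks any cortical cell in which the nNos gene drove Cre. The labels do not say which libraries came from separate animals. Their descriptions carry 4 numbers that a macula densa and a control-cell library of the same diet share, with no statement of what they mean. The p-values therefore measure only the spread between these libraries.

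Each cytosolic ribosome is built from a small subunit, which reads the messenger RNA, and a large subunit, which joins amino acids, and nearly all of its proteins are present in a single copy. The exception is the stalk of the large subunit, where Rplp0 anchors dimers of Rplp1 and Rplp2 that recruit translation factors. Most of these messenger RNAs start with a C followed by a run of pyrimidines, the terminal oligopyrimidine tract, through which the kinase mTORC1 controls their translation together. Because most cells make these RNAs at high and balanced levels, they are often used as reference genes.

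The start-site windows of a few genes named below are shown because a pyrimidine-rich start is the sequence feature the family is known for. They are RefSeq promoter entries on GRCm38.p6, 30 bases each, written 5′ to 3′ on the gene's own strand with base 16 as the annotated start, and capitals mark CTTTC.
Rpl28: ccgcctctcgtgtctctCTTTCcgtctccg
Rpl35a: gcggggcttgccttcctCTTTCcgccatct
Rplp2: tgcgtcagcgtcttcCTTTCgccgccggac
Rps27: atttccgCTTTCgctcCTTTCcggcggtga
Rplp0: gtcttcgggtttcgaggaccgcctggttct
Rps28: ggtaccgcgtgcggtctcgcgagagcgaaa
The Rpl28 window lies on the plus strand at chr7:4792950-4792979, that of Rpl35a, 1 of 3 annotated starts, on the plus strand at chr16:33056467-33056496, and that of Rplp2 on the plus strand at chr7:141447636-141447665. The Rps27 window lies on the minus strand at chr3:90213634-90213663, that of Rplp0 on the plus strand at chr5:115559452-115559481, and that of Rps28 on the minus strand at chr17:33824548-33824577. The letters CTTTC occurred on the sense strand within 25 bases of an annotated start in 18 of the 57 genes with a window (31.6%), against 7.82% of 26968 other genes. On the opposite strand the shares were 8.77% and 7.07%. Over the whole window of 300 bases, CGGAAG, the core letters recognised by ETS-family factors, occurred on either strand in 40 of 57 (70.2%), against 18.7% of the other genes. AAGATGG, a YY1 sequence, occurred on either strand in 9 of 57 (15.8%), against 7.26%. Matches of different motifs could overlap. The 18 genes with CTTTC and the 39 without it had like median log2 differences between diets in control cells, 0.39 and 0.45. All 77 genes lay above 0 in that comparison, so both sets had to. A window without CTTTC can still be rich in pyrimidines, as 1 of those of Rpl34 was.

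Library totals ranged from 4259034 to 14856540 counts. Nuclear protein-coding genes held 15.7% to 22.6% of them, and the noncoding gene Gm42418, annotated over a ribosomal RNA repeat, took 53.5% to 65.0%. The labelled cell types were checked with marker lists. Nos1, which macula densa cells express, lay between 100.4 and 232 CPM (counts scaled to 1e+06 per TMM-scaled library) in the 4 green libraries and between 0.109 and 0.734 CPM in the 8 red ones. Pappa2, another macula densa marker, lay between 228 and 774 CPM and between 0 and 1.22 CPM. Slc12a1, the cotransporter shared with the neighbouring thick ascending limb, lay between 1769 and 2026 CPM in the green libraries and between 41.8 and 430 CPM in the red ones. Thick ascending limb markers together, Slc12a1 included, summed to 2278 to 4106 CPM and 208 to 1519 CPM. Principal-cell markers of the collecting duct summed to 104 to 900 CPM in control cells, but podocyte markers reached 42.4 to 1288 CPM and endothelial markers 44.9 to 1552 CPM there, with no marker of either list at 0 in those libraries. Untreated control-cell replicate 4 held the least of both. In such bulk samples, fewer cells of a type and less RNA per cell cannot be told apart.

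The 77 genes together took 0.887% to 1.278% of the protein-coding counts in 11 of the 12 libraries, and more in a single control-cell library. In macula densa cells the share of nuclear protein-coding counts was 1.164% and 1.169% without treatment and 1.071% and 1.028% under treatment. In control cells it was 0.929%, 1.001%, 0.887% and 1.077% without treatment and 1.875%, 1.088%, 1.042% and 1.278% under treatment. In macula densa cells the direction turned with the denominator, since the summed CPM of the 77 genes was 1995 and 2039 without treatment and 2176 and 2221 under treatment. The treated control-cell libraries overlapped those without treatment only in the values near 1.04 to 1.08%, and replicate 1 of that group stood above all other libraries. The large subunit supplied 66.8% to 70.8% of these counts in the 12 libraries.

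**Figure D1:**
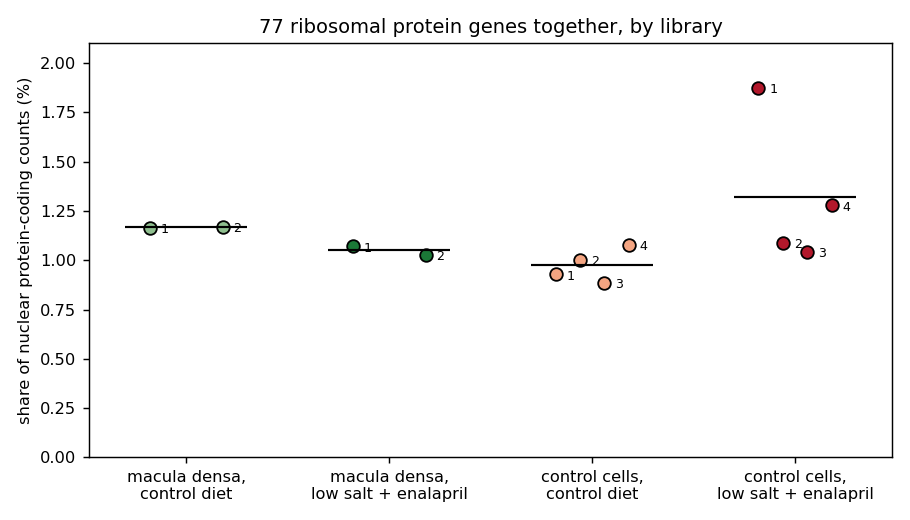
Share of nuclear protein-coding counts (%) taken by the 77 ribosomal protein genes in each of the 12 libraries, with points numbered by replicate and a line at each group's mean. Replicate 1 of the treated control cells sits at 1.875%, and the other 11 libraries lie between 0.887% and 1.278%.

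That library, treated control-cell replicate 1, had the highest CPM of all 12 for 63 of the 77 genes. Its genes lay a median of 0.62 log2 units above the mean of the 3 other libraries of its group, and all 77 lay above it on this measure. The same library was the deepest and had the smallest protein-coding share (15.7%) and the largest Gm42418 share (65.0%). Erythroid markers were at 0 in it (5 of 5 genes). In treated control-cell replicate 3 and treated macula densa replicate 2, 4 of 5 were at 0. Elongation factors deviated by a median of 0.39, initiation factors by 0.13 and all tested genes by 0.00 in treated control-cell replicate 1. Noncoding hosts of small nucleolar RNAs deviated by 0.58, subunit genes without an Rp name by 0.55 and ribosome biogenesis genes by 0.26. The medians were 0.25 for the mitochondrial ribosome, 0.10 for RNA polymerase I and -0.03 for mTORC1 and translation control. Some lists had a larger deviation elsewhere, with noncoding hosts at -0.73 and the mitochondrial ribosome at 0.45 in untreated control-cell replicate 4. No other library deviated further for the 77 genes, elongation factors, subunit genes without an Rp name or ribosome biogenesis genes. The part of depth or cell makeup in the level of treated control-cell replicate 1 was not tested. Results that rest on that library are given below with and without it.

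**Figure D2:**
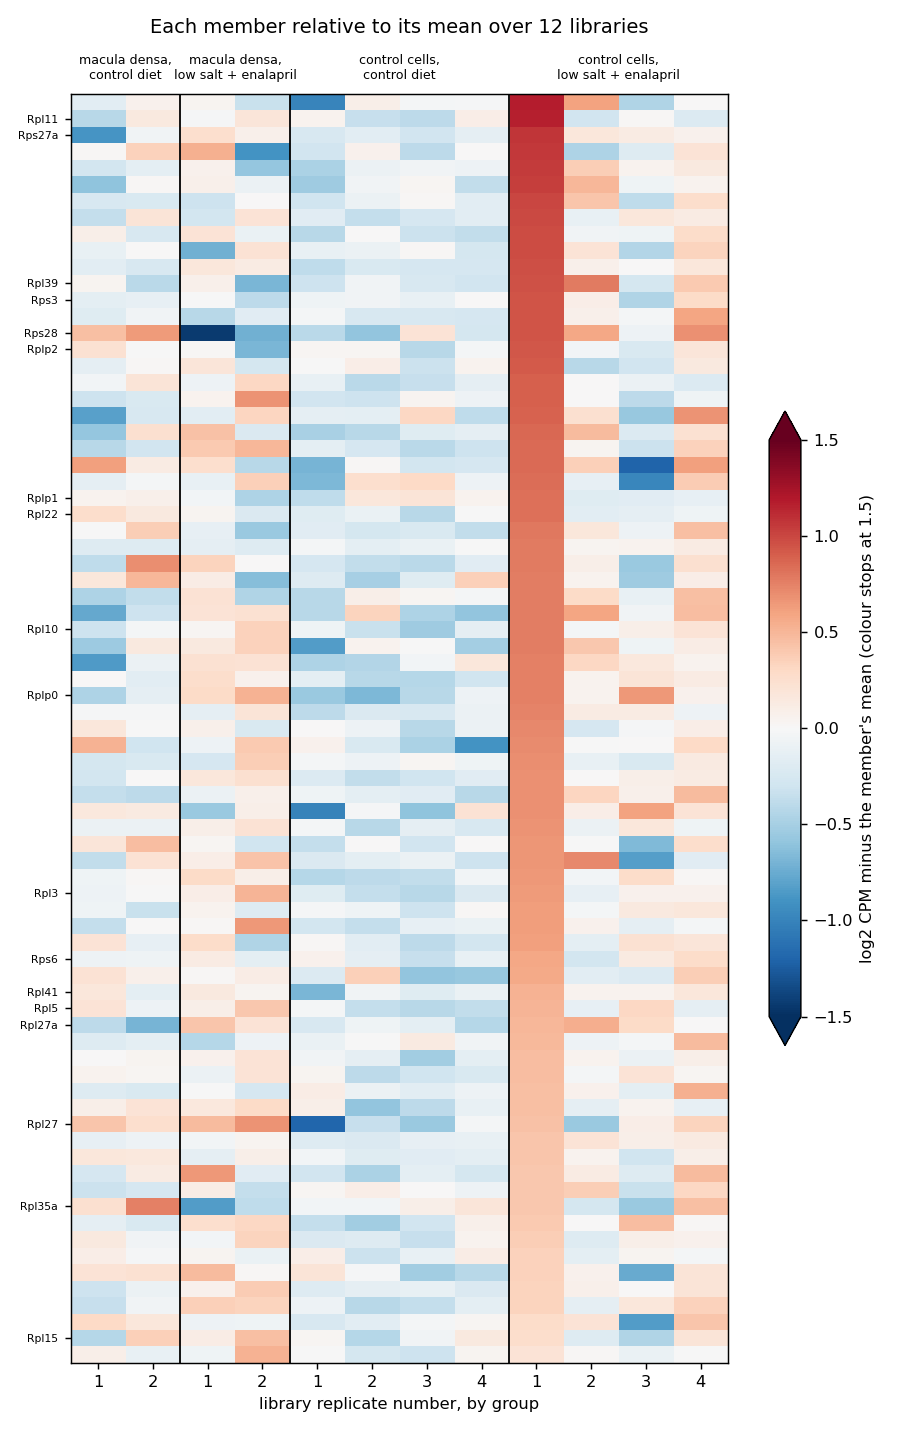
Each of the 77 genes (rows) in each library (columns), coloured by log2 CPM minus the gene's own mean over the 12 libraries and ordered by the value in treated control-cell replicate 1, with names for a few of the genes described in the text. Treated control-cell replicate 1 holds the highest value for 63 genes, and Rps28 is lowest in treated macula densa replicate 1.

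Levels can be compared between genes only per length. On the scale of mean CPM per kilobase of the principal transcript, the highest were Rpl26 (165), the stalk gene Rplp1 (150.5), Rpl23a (106) and Rpl22 (88.4). The lowest were Rps15a (2.19), Rps20 (4.89), Rpl15 (5.66), Rps25 (6.32) and Rps16 (6.66). Several of the lowest have long annotated principal transcripts, 5179 bp for Rps15a and 3706 bp for Rps20 against a median of 780 bp over the 77 genes, so their levels per length depend on which transcript is taken. The high level of Rpl22 depends on it too, since its principal transcript has 474 bp and its exons together 2911 bp. The deposited values were not whole in 93.1% of cases for the 77 genes, against 11.97% for other protein-coding genes, with a tolerance of 1e-06. A value is not whole where a counter shares a read between loci, and how this was done is not given in the sources used here. The table also held 94 rows for ribosomal pseudogenes with -ps symbols, which carried 4.35 to 6.00 counts per 100 counts of the 77 genes. Where such copies are near-identical, the counts of a single gene are uncertain.

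Within groups, the median standard deviation of log2 CPM over the 77 genes was 0.13 in untreated and 0.23 in treated macula densa cells (2 libraries each). In control cells (4 libraries each) it was 0.17 without treatment and 0.37 under treatment. This spread was not set against that of all genes. The median gene spanned 1.27 log2 units over the 12 libraries.

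Without treatment, the first comparison asked whether macula densa cells carry more or less ribosomal protein RNA than other cortical cells. The differences were small, and none of the 77 genes passed the edgeR test at an adjusted p of 0.05, while 6.61% of all 14180 genes tested did (2.69% higher and 3.92% lower). At an unadjusted p under 0.05 there were 2 genes, Rpl27 and Rps28, both higher, where 8.67% of all genes were higher and 15.6% lower. Neither limma voom nor DESeq2 called any. The median log2 difference was 0.12, with 55 of 77 above 0, against a median of -0.05 for all genes, of which 46.9% lay above 0. By subunit the median was 0.14 for the large and 0.05 for the small.
The largest differences were those of Rpl27, a large-subunit protein, with a log2 difference of 0.81 ± 0.31 (SE, adjusted p 0.138), followed by Rps28, Rps10, Rpl36a and Rps19. Rpl27 read 10.98 and 9.86 CPM in untreated macula densa cells and 3.61, 6.48, 5.62 and 8.06 CPM in control cells on that diet. Under treatment it read 11.5 and 13.1 CPM in macula densa cells and 11.1, 5.63, 8.82 and 10.4 CPM in control cells. Rpl27 was thus higher in macula densa libraries without overlap on both diets. Averaged over the diets its log2 difference was 0.62 ± 0.22 (edgeR adjusted p 0.0677), so that it did not pass. Its adjusted p ranged from 0.0239 to 0.260 over 23 alternatives, of which 5 passed. Leaving out untreated control-cell replicate 4 gave 0.0258. Adding the counts of its -ps pseudogene rows, an alternative chosen after seeing the data, gave the highest, 0.260, and lowered the log2 difference to 0.32, and to 0.14 under treatment (from 0.43). In this average, 0 of 77 genes passed the edgeR test where 21.3% of all genes did (7.48% higher and 13.9% lower), 1 had an unadjusted p under 0.05, and limma voom and DESeq2 called 0.
Rps19, which matures the small subunit and is mutated in Diamond-Blackfan anaemia, read 24.3 and 13.8 CPM in macula densa cells and 17.8, 14.5, 12.2 and 9.09 CPM in untreated control cells. Its groups overlapped. At the other end lay Rps27 (log2 difference -0.43), Rps7 (-0.34), Rpl27a (-0.33), Rps25 (-0.30) and Rps16 (-0.29). Of these 5, only Rps25 had groups that did not overlap, with 6.36 and 6.68 CPM in macula densa cells and 8.09, 8.55, 7.999 and 7.54 CPM in control cells. In all, 14 genes lay higher and 6 lower in macula densa cells without overlap, against 15.2% and 16.7% of all genes.

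Under treatment, the same comparison gave a single gene past the test. Rps28, a short protein near the messenger RNA exit of the small subunit, was lower in macula densa cells, where 7.27% of all genes were called, 3.15% higher and 4.13% lower. It read 2.30 and 3.77 CPM in macula densa cells and 11.9, 9.30, 5.88 and 9.97 CPM in treated control cells. All 4 control-cell libraries lay above both macula densa libraries. The log2 difference was -1.61 ± 0.36 (edgeR adjusted p 0.0224), from means of 3.04 ± 1.04 CPM (SD, n = 2) and 9.27 ± 2.51 CPM (SD, n = 4).
The Rps28 call rests on few counts, 12 and 23 in the macula densa libraries. It was lost when either of those was left out (adjusted p 0.109 without replicate 1 and 0.0793 without replicate 2) and with limma voom (0.0757).
Rps28 lies on chromosome 17 from 33819027 to 33824562 (GRCm38, minus strand), and 88 of its 1719 exon bases, from 33819092 to 33819179, overlap exons of Kank3 on the other strand. Whether strand was used in counting is not given. Kank3 held 53 and 22 counts in untreated macula densa cells, 14 and 15 under treatment, 384, 288, 280 and 37 in untreated control cells and 227, 81, 93 and 267 under treatment. The part of Kank3 reads in the Rps28 counts was not tested.

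The other genes lay mostly below 0 in this comparison, but that direction rested on a single library. The median was -0.22, with 16 of 77 above 0, against -0.06 for all genes with 46.5% above 0. Without treated control-cell replicate 1 the median was 0.02, with 41 of 77 above 0. With scaling by library totals alone it was 0.01, with 43 above 0, while the all-gene median shifted from -0.06 to 0.16. Among the lowest after Rps28 were Rpl39 (-0.81), Rpl28 (-0.75) and Rpl36 (-0.69), and 5 genes in all were lower at an unadjusted p under 0.05, where 15% of all genes were lower and 10.3% higher. Among the highest were Rpl27 (0.43), Rpl15 (0.30), Rps15a (0.23) and Rpl34 (0.20). Rpl39, a protein of the exit tunnel wall, read 5.56 and 3.28 CPM in macula densa cells and 10.2, 9.06, 4.41 and 6.92 CPM in control cells. Its groups overlapped.

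**Figure D3:**
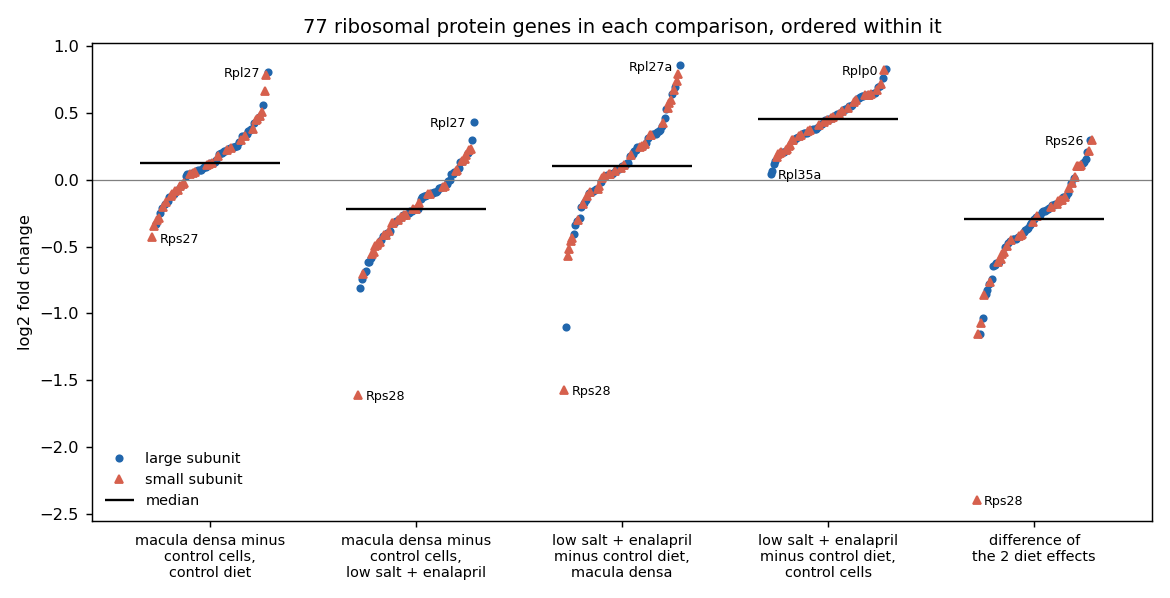
Log2 fold changes of the 77 genes in 4 comparisons and in the difference of the 2 diet effects, ordered within each, with circles for the large and triangles for the small subunit and a line at the median. The diet comparison in control cells lies wholly above 0 with a median of 0.45, and Rps28 is the lowest gene in 3 of the comparisons shown.

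In macula densa cells, the treated and untreated libraries differed by a median near 0, with single genes on both sides. None of the 77 passed the edgeR test, and 0% of all genes did. At an unadjusted p under 0.05, 4 of the 77 were higher and 2 lower, where 5.51% and 5.73% of all genes were, and limma voom and DESeq2 called 0 of the 77. The median log2 difference was 0.10, with 52 of 77 above 0, against -0.02 and 48.5% for all genes. The groups did not overlap for 23 genes that were higher and 10 that were lower, where with 2 libraries against 2 this held for 18.8% and 21.8% of all genes.
Markers of other cells also differed between these libraries. Under treatment endothelial markers were lower for 7 of 7 genes (median log2 difference -2.63, summed 25.6 to 174 CPM without treatment and 13.5 to 17.2 CPM under it). Podocyte markers were lower for 5 of 6 (median -2.88, summed 20.9 to 146 and 18.4 to 35.1 CPM). Untreated replicate 1 held the upper value for endothelial and podocyte markers alike, and the podocyte sums overlapped between diets. Proximal tubule markers were lower for 8 of 8 (median -0.99, summed 121 to 197 and 37.7 to 83.5 CPM). Mitochondrial genes took 11.7% and 14.1% of all counts without treatment and 7.18% and 6.88% under treatment. None of these markers passed the edgeR test, and the part of these differences in the values of the 77 genes was not tested.
Rps28 read 8.51 and 9.69 CPM without treatment against 2.30 and 3.77 under treatment in macula densa cells, a log2 difference of -1.57 ± 0.39 (edgeR adjusted p 0.229). Rpl35a, a large-subunit protein, read 7.28 and 10.4 CPM against 3.45 and 4.76 CPM (log2 difference -1.10). For both genes each treated library lay below each untreated library. Rps29 and Rps2 were also among the lowest, at -0.57 and -0.46.
At the upper end, Rpl27a read 10.5 and 8.47 CPM without treatment and 18.4 and 15.9 CPM under treatment (log2 difference 0.86 ± 0.25, edgeR adjusted p 0.292). Rps12 (0.79), Rps16 (0.74), Rplp0 (0.69) and Rps26 (0.67) came next. The groups of all 5 did not overlap, and none of the 5 passed the test.

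Short genes lay toward the lower end of this comparison. This split was not planned, and its short side holds Rps28 and Rpl35a, the lowest of the 77 genes here. Which genes count as short depends on the transcript taken as principal. The 11 genes whose principal transcript is under 500 bp, among them Rpl22, Rpl35a, Rpl36, Rpl36a, Rpl38, Rplp1, Rps21, Rps27, Rps28 and Rps29, had a median diet difference of -0.28 in macula densa cells, with 8 of 11 below 0. The 66 longer genes had a median of 0.13, with 17 below 0. The 54 other nuclear protein-coding genes with such short transcripts had a median of -0.33, with 36 below 0, and the 12253 longer ones a median of -0.01. In macula densa against treated control cells all 11 lay below 0 (median -0.33), where the other short genes had a median of -0.08 with 30 of 54 below 0. Without treatment 8 of 11 lay above 0 (median 0.33), where the other short genes had a median of 0.27 with 32 above 0. Between diets in control cells all 11 lay above 0 (median 0.35), where the other short genes had a median of -0.11 with 34 below 0. Of the summed CPM of the 77 genes, the short ones held 10.9% and 11.7% in untreated macula densa cells and 9.95% and 7.74% under treatment. In control cells they held 9.71%, 11.7%, 11.8% and 11.3% without treatment and 11.4%, 9.87%, 8.64% and 10.01% under treatment. The part of transcript length in the values of single genes was not tested.

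In control cells, every one of the 77 genes had a fitted log2 difference above 0 under treatment against control diet, where 45.8% of all genes did. None passed the edgeR test, which called 0.00705% of all genes (1 gene, Ren1, which encodes renin), and the smallest adjusted p was 0.416. At an unadjusted p under 0.05 there were 35 genes, all higher, where 6.45% of all genes passed that threshold, 4.01% higher and 2.44% lower. DESeq2 called 2, Rplp0 among them, and limma voom 0. The median log2 difference was 0.45, with the middle 50% of genes between 0.32 and 0.60, against -0.04 for all genes. It was 0.46 for the large and 0.43 for the small subunit.
Cell-type markers differed in the same comparison. Principal-cell markers were lower under treatment for 8 of 8 genes (median log2 difference -0.91, summed 134 to 900 CPM without treatment and 104 to 364 CPM under it, none at 0). Distal convoluted and connecting tubule markers were lower for 5 of 6 (median -1.06, summed 81.2 to 641 and 69.1 to 146 CPM, with 1 marker at 0 in each treated library). Smooth muscle and renin-cell markers were higher for 5 of 6 (median 0.82, summed 122 to 173 and 143 to 536 CPM, none at 0). Endothelial and podocyte markers were lower for 7 of 7 and 6 of 6 (medians -0.63 and -0.43). Intercalated-cell and erythroid markers were lower for 5 of 6 and 5 of 5 (medians -0.84 and -1.26). Untreated replicate 4 held the highest sums of principal-cell, distal and intercalated-cell markers, at 900, 641 and 350 CPM. The other untreated libraries held 134 to 463, 81.2 to 176 and 21.9 to 117 CPM. Of these markers Ren1 alone passed the edgeR test, and their part in the values of the 77 genes was not tested.
Part of this difference rested on a single library. Without replicate 1 under treatment the median was 0.28, 70 of 77 lay above 0 (47% of all genes), and 8 had an unadjusted p under 0.05 with a higher level (2.45% of all genes). With all libraries kept, the groups did not overlap for 19 higher genes and 0 lower ones, against 2.1% and 2.09% of all genes. Leaving out replicate 1 under treatment could only keep or add such genes. It added none of the 77, so the count stayed at 19, against 3.24% of all genes. Among these 19 were Rpl3, Rpl7, Rpl9, Rpl10, Rpl14, Rpl17, Rpl19, Rpl23a, Rpl27a, Rpl28, Rpl36, Rpl41, Rplp0, Rps3a1, Rps9, Rps20 and Rps27a. With library totals alone 75 of 77 lay above 0, since Rpl35a and Rpl15 turned below it, while the all-gene median shifted from -0.04 to -0.13. With that scaling 12 of the 77 had an edgeR unadjusted p under 0.05, where 867 of 14180 genes did. Leaving out untreated control-cell replicate 3 gave 18 of the 77 under that threshold, where 700 of 14112 genes passed it.

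**Figure D4:**
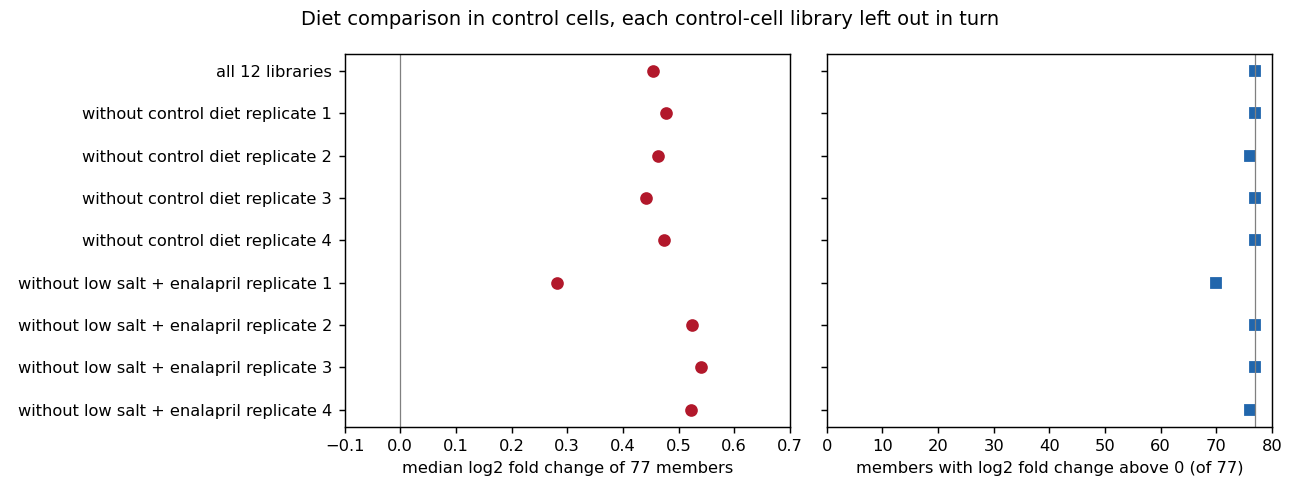
Median log2 fold change of the 77 genes (left) and number of genes above 0 (right) for treated minus untreated in control cells, with all libraries and with each control-cell library left out. Leaving out treated replicate 1 gives 0.28 and 70 genes, and every other omission gives a median of at least 0.44.

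The 3 stalk genes gave unlike values. Rplp0 had the largest difference of the 77 in control cells, 0.83 ± 0.22 (edgeR unadjusted p 0.00235, adjusted p 0.416). It read 56.0, 51.6, 61.7 and 78.1 CPM without treatment and 138, 85.2, 129 and 85.9 CPM under treatment. In macula densa cells it read 59.9 and 75.3 CPM and then 100.2 and 118 CPM. In both populations all treated libraries lay above all untreated libraries.
Rplp1 read 56.0, 82.2, 83.3 and 75.9 CPM in untreated control cells and 130, 64.4, 65.1 and 67.3 CPM under treatment. Its log2 difference was 0.14 with replicate 1 under treatment and -0.18 without it. In macula densa cells Rplp1 read 76.1 and 77.1 CPM without treatment and 70.9 and 53.0 CPM under treatment, so that the treated libraries were lower. Rplp2 read 43.4 and 36.8 CPM, then 37.5 and 23.0 CPM in macula densa cells. In control cells it read 37.7, 38.0, 27.8 and 36.4 CPM without treatment and 70.7, 36.0, 31.7 and 42.0 CPM under treatment, with overlap.

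**Figure D5:**
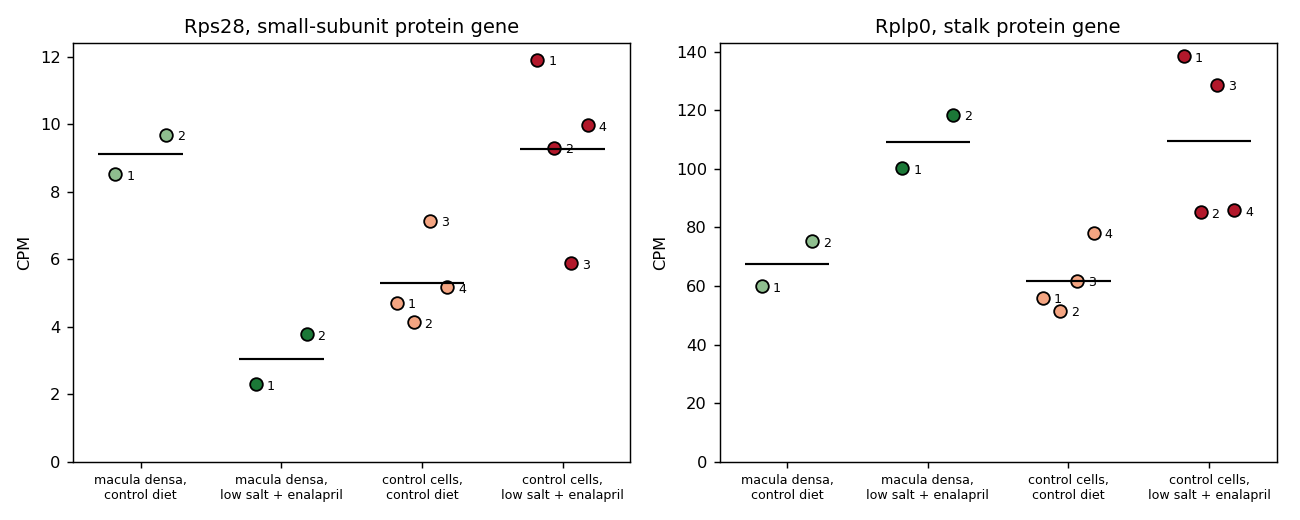
CPM of Rps28 (left) and Rplp0 (right) in each library, numbered by replicate, with a line at each group's mean. Rps28 is lowest in treated macula densa cells, and Rplp0 is higher under treatment than without treatment in both cell populations.

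Among small-subunit genes, Rps28 had the largest difference in control cells, 0.82 ± 0.26 (edgeR adjusted p 0.605). It read 4.70, 4.13, 7.14 and 5.17 CPM without treatment in control cells, and the treated value of 5.88 CPM in replicate 3 lay inside that range. Rps27a, whose precursor is made fused to ubiquitin, read 18.9, 20.01, 18.3 and 20.4 CPM without treatment and 47.0, 25.2, 24.4 and 23.3 CPM under treatment, without overlap. Rps16 differed by 0.71. Rps3, at the messenger RNA entry site, read 22.6, 22.8, 21.9 and 23.8 CPM without treatment and 45.6, 25.2, 17.2 and 28.8 CPM under treatment, with overlap. Rps6, the subunit that the S6 kinases phosphorylate, read 37.6, 32.6, 28.2 and 33.3 CPM and then 53.5, 29.6, 39.3 and 43.4 CPM, also with overlap. Rpsa, known also as the laminin receptor precursor, lay between 72.9 and 95.6 CPM without treatment and between 80.5 and 119 CPM under treatment. The X-linked Rps4x lay between 24.1 and 30.5 CPM without treatment and between 29.1 and 40.6 CPM under treatment in control cells.

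Among large-subunit genes, Rpl39 (0.76) and Rpl38 (0.70), a protein known for selective translation of Hox messenger RNAs, followed Rplp0. Rpl3, which lies at the peptidyl transferase centre, read 51.3, 45.4, 43.7 and 50.1 CPM without treatment and 90.7, 53.4, 61.1 and 60.7 CPM under treatment, without overlap. In macula densa cells Rpl3 read 55.3 and 57.8 CPM and then 62.5 and 83.2 CPM, again without overlap. Rpl10, which is added last and completes the subunit, read 29.5, 24.4, 21.2 and 28.1 CPM and then 52.4, 30.1, 32.8 and 35.4 CPM in control cells, without overlap.
Rpl5 and Rpl11, which bind the p53 inhibitor MDM2 when ribosome assembly fails, overlapped between diets. Rpl5 read 74.0, 58.9, 56.7 and 58.7 CPM and then 107.6, 69.5, 93.9 and 69.0 CPM. Rpl11 read 15.9, 12.03, 11.6 and 16.3 CPM and then 34.4, 12.5, 15.5 and 13.2 CPM, so that its treated group lay apart only in replicate 1. Rpl22 gave the same picture, with 36.2, 38.2, 30.8 and 40.6 CPM and then 72.4, 36.7, 37.2 and 39.2 CPM.
Rpl13a, often used as a reference gene, read 72.1, 69.5, 58.9 and 73.7 CPM and then 113, 71.2, 80.4 and 81.9 CPM in control cells. Rpl41, the smallest ribosomal protein, read 11.6, 18.04, 16.5 and 17.5 CPM and then 26.7, 19.3, 19.3 and 21.1 CPM, without overlap. Rpl36a lay between 6.76 and 7.95 CPM without treatment and between 6.09 and 15.4 CPM under treatment. The smallest differences were those of Rpl35a (0.05), Rpl15 (0.06), Rpl8 (0.12) and Rplp1 (0.14).

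The 2 diet effects were also compared with each other. None of the 77 genes passed the edgeR test for a difference between them, nor did any of all genes (0%). At an unadjusted p under 0.05 there were 4 genes, all lower in macula densa cells, where 7.03% of all genes passed, 3.48% higher and 3.55% lower. Of the 77, limma voom called 0 and DESeq2 1, Rps28. The median of the difference was -0.29, with 13 of 77 above 0 (49.5% of all genes), and without treated control-cell replicate 1 it was -0.12 with 25 above 0.
Rps28 had the largest difference, -2.39 ± 0.47 (edgeR unadjusted p 0.000271, adjusted p 0.394). The adjusted p was 0.0109 with the DESeq2 Wald test and ranged from 0.0109 to 0.929 over 23 alternatives. Rps28 was lower under treatment in both macula densa libraries, and in control cells 3 of the 4 treated libraries lay above all 4 without treatment. Rpl35a (-1.15), Rps10 (-1.07) and Rpl24 (-1.03) were also among the lowest, and the highest were Rps26 (0.30), Rpl27a (0.30), Rps12 (0.21), Rpl15 (0.21) and Rpl34 (0.15).

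The genes kept apart had few counts. Rpl3l, a striated-muscle form of Rpl3, held 0 to 8 counts per library, Rpl10l, a testis form of Rpl10, 0 to 10, and Rps27rt 0 to 24. Rpl7l1 held 21 to 147 counts, Rpl36al 11 to 113, Rps19bp1 7 to 66, Rpl22l1 7 to 64 and Rps27l 0 to 43. Rpl22l1, the paralogue of Rpl22, read 1.03 and 1.303 CPM in untreated macula densa cells and 4.98 and 2.79 CPM under treatment, without overlap (log2 difference 1.71 ± 0.64, edgeR adjusted p 0.361). Rpl22 itself read 49.0 and 45.2 CPM and then 42.1 and 35.3 CPM there. None of the 6 of these genes that could be tested passed in any comparison.

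In the diet comparison of control cells, Rack1, a scaffold protein of the small subunit, differed by 0.48 and Fau, from which the small-subunit protein eS30 is cut, by 0.41. Neither passed. Among 8 elongation factors tested, 0 passed in that comparison and 3 had an unadjusted p under 0.05 with a higher level, where 4.01% of all genes did. Eef1a1, which brings aminoacyl-tRNA to the ribosome, had means of 206 ± 15.2 CPM without treatment and 336 ± 60.7 CPM under treatment (SD, n = 4 each, log2 difference 0.70, edgeR adjusted p 0.411). Eef2, the translocase, differed by 0.47. In the average over diets, in which 21.3% of all genes passed (7.48% higher and 13.9% lower), 2 of the 8 did. Eef1d was higher and Eef2k, the kinase that inhibits Eef2, lower in macula densa cells (0.52 and -1.25, edgeR adjusted p 0.0434 and 0.0137).
Of 30 initiation factors, 0 passed in the diet comparison of control cells, with a median of 0.05 and with Eif6 (0.90) and Pabpc1 (0.68) among the smallest p-values. Averaged over diets, where 21.3% of all genes passed (7.48% higher and 13.9% lower), 1 of the 30 did. The gene was Eif1ax, which acts in start-codon scanning and was higher in macula densa cells (0.89, edgeR adjusted p 0.00456). The 32 genes of ribosome biogenesis had a median of 0.00 between diets in control cells and 0 passed. Averaged over diets 1 of the 32 passed, against 21.3% of all genes. This gene, Sbds, a factor in late large-subunit maturation, was lower in macula densa cells (-0.64, edgeR adjusted p 0.0361). Of 15 genes for RNA polymerase I and its regulators tested, 1 gene, Myc, passed in that average, against 21.3% of all genes. It was lower in macula densa cells (-2.37, edgeR adjusted p 0.0171). Myc rests on few counts, with means of 0.39 and 0.38 CPM in untreated and treated macula densa cells. Its means in control cells were 1.57 and 2.52 CPM. Of 18 genes of mTORC1 and translation control, 1 gene, Rps6ka1, passed in the same average, against 21.3% of all genes. It was lower in macula densa cells (-1.02, edgeR adjusted p 0.0267). That list had a median of 0.12 between diets in control cells with 0 passing.
The 7 noncoding hosts of small nucleolar RNAs that could be tested had a median of 0.37 between diets in control cells and 0 passed, with Gas5 at 0.84. The 78 genes of the mitochondrial ribosome had a median of -0.06 there, with 32 above 0 and 0 passing. Averaged over diets 4 of the 78 passed, against 21.3% of all genes: Mrpl1, Mrpl30, Mrpl46 and Mrps17, all higher in macula densa cells, at log2 differences of 1.24, 0.84, 0.92 and 0.92 (edgeR adjusted p 0.0119, 0.045, 0.0436 and 0.0153). Under treatment 1 of the 78 passed, against 7.27% of all genes. This gene, Mrpl45, was lower in macula densa cells (edgeR adjusted p 0.0326). Its means were 1.22 ± 0.367 CPM there (SD, n = 2) and 3.48 ± 0.472 CPM in control cells (SD, n = 4).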

How the data were processed

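RNA from sorted mouse kidney cells was measured in 12 libraries made with a stranded total-RNA kit, per the labels' protocols. The authors deposited a table of expected counts per gene, not normalized and in part not whole. The submitters' processing notes name STAR 2.61, Partek and mm10; how reads were counted, and whether strand was used, is not given in the sources used here. Library totals were 4259034 to 14856540 counts, and the 77 genes held 8500 to 43719 counts per library.

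Values were rounded to whole counts and fitted once over all 12 libraries with edgeR 4.0.16 in R 4.3.3 (quasi-likelihood test, TMM scaling, filterByExpr with count minimum 10 and total minimum 15, Benjamini-Hochberg threshold 0.05), which tested 14180 genes. Log2 differences are followed by their standard error. The fit code was run on simulated counts that gave all genes the same spread and held no library apart, unlike these data. Annotation came from GENCODE M21 (GRCm38), matched for 23351 of 23378 genes, and start windows from RefSeq GRCm38.p6.

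Named genes were the 5 highest and 5 lowest log2 differences of the 77 in each comparison, called genes, genes with well-known roles, the variants, the 5 highest and lowest levels per length, and up to 4 genes with the smallest p in each pathway list; the mitochondrial genes named are those that passed. Some genes that meet this rule are not reported here. The members and lists were chosen with earlier results of these data known. Alternatives covered scaling, filters, limma 3.58.1 voom, DESeq2 1.42.0, replicate blocks, pseudogene counts and each library left out. The fit on 8 libraries and the summed pseudogene counts were added after seeing the data, and the split by transcript length was not planned.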

Additional observations from a re-analysis of the deposited data

Results flagged for a closer look

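In 13 of 118 sets of 4 control-cell libraries, a single library stood apart from the other 3 by more than Dixon's 95% criterion. Chance alone meets it in about 1 set in 20 where sets are independent and chosen beforehand. These sets share libraries, and many of their genes were named for their values in these data. The count of 13 therefore cannot be weighed against that rate. Among treated control cells, replicate 1 was high for Rpl11 (34.4 CPM against 12.5 to 15.5), Rpl22 (72.4 against 36.7 to 39.2), Rpl23a (112 against 57.5 to 64.8), Rplp1 (130 against 64.4 to 67.3) and Rps27a (46.96 against 23.3 to 25.2). In the same group, replicate 3 was high for the variant Rpl3l (1.47 CPM against 0 to 0.231) and low for Rps25 (6.30 CPM against 9.87 to 10.5).

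Among untreated control cells, replicate 1 was low for Rpl23a (44.1 CPM against 48.4 to 49.1) and Rpl36 (11.5 against 15.03 to 15.4), and high for Rpl28 (10.5 against 8.99 to 9.05) and Rpl5 (74.03 against 56.7 to 58.9). Replicate 3 was low for Rplp2 (27.8 CPM against 36.4 to 38.0) and replicate 2 high for Rps16 (8.83 CPM against 4.65 to 5.25).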

How the results depend on the processing

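Over the alternatives, 276 of 300 values of the group shares, counts of called genes and medians stayed within their limits. The limit was the pooled standard deviation of library medians (0.21 log2 units) for medians and a fixed ratio for counts. For shares it was the group's own standard deviation. Leaving out a library cannot move a mean share that far in groups this small, so those values had to stay. Shares over all counts or with genes added differ by definition, and the cause of the other changes was not tested. Macula densa against untreated control cells gave 1 called gene without untreated control-cell replicate 4 (0 to 1 over all omissions). Under treatment it gave 0 with limma voom and 0 to 1 when a library was left out, and the median was 0.011 with library totals alone and -0.29 to 0.021 over omissions. Averaged over diets, 1 gene was called with library totals alone, 1 among genes averaging at least 5 CPM and 0 to 1 over omissions. DESeq2 called 2 genes between diets in control cells and 1 for the difference of the diet effects. With the variants, subunit genes without an Rp name and pseudogenes added, the mean shares were 1.28% and 1.17% in untreated and treated macula densa cells and 1.08% and 1.46% in untreated and treated control cells. Of all counts, the 77 genes held 0.226% and 0.236% in untreated and treated macula densa cells and 0.182% and 0.226% in control cells.

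Both the title numbers and the description numbers were tried as a replicate block. Same-numbered libraries correlated by 0.227, -0.018, 0.075 and -0.037 on the description numbers, which does not exceed 0.1 in every pair. With 2 macula densa libraries per diet such values mirror each other and cannot show whether the libraries share an animal. The title block called 0 genes in treated macula densa against control cells. The description block called 1 gene, Rpl6, in the untreated comparison and 2 in the average, and gave a median of -0.0075 under treatment. The same 8 libraries without the block called 1 and 3. Between diets in control cells, 20 of the 77 had an unadjusted p under 0.05 with the title block, where 672 of 14180 genes did. On the 8 libraries 10 of the 77 did, where 329 of 13692 genes did.

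Some named genes changed sign when 1 library was left out. In macula densa against untreated control cells Rps16 ranged from -0.48 to 0.0061 and Rpl36a from -0.036 to 1.01, and in the average Rpl36a ranged from -0.068 to 0.46. Under treatment Rps15a ranged from -0.062 to 0.41 and Rpl34 from -0.19 to 0.43. Between diets in control cells Rpl35a ranged from -0.083 to 0.20, Rpl15 from -0.050 to 0.18 and Rplp1 from -0.18 to 0.26. For the difference of the diet effects Rps26 ranged from -0.12 to 0.66, Rpl15 from -0.19 to 0.57 and Rpl34 from -0.27 to 0.36. With library totals alone Rpl35a was -0.033 and Rpl15 -0.021, with pseudogene counts summed Rpl35a was -0.14, and on the 8 libraries without the block Rplp1 was -0.33. Low counts limit single genes such as Rps28, and the 2 macula densa libraries per diet limit every comparison.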
